A study of Mus musculus with 282 samples.

Results

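Integrins, the hemidesmosome and the basement membrane were examined in basal stem cells from mouse prostates that were either naive or inflamed, through 31 genes listed by name and found among the 48440 gene rows of both count tables. The 31 comprised 6 hemidesmosome genes, Lama3 and Lamb3, 2 chains of the laminin that hemidesmosomes bind, 6 other integrin subunits and 4 other laminin chains. They also comprised 2 nidogens, 4 collagen IV chains, Agrn, Hspg2 and Dag1, Npnt with the Fraser complex genes Fras1 and Frem2, and Tnc, a wound matrix gene. All cells came from prostates of male POET3 mice, a transgenic line used as a model of prostatitis in which the prostate expresses ovalbumin as an antigen. Naive and inflamed describe the prostate. The sources used here do not say how inflammation was brought about, how old the mice were or how many were used. Cells were sorted after staining with a viability dye and antibodies to CD45, CD31, Sca-1 and CD49f. CD49f is the integrin alpha 6 chain encoded by Itga6, 1 of the 31 genes, so its level can be set by the sort, for which no gates are stated in the sources used. Each deposited sample was 1 cell. Batch 2 held 55 naive cells beside 85 inflamed ones, and batch 3 held 64 beside 78.

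Basal cells of a glandular epithelium stand on a basement membrane, a sheet of laminins and collagen IV linked by nidogens and perlecan. Integrins are receptors of an alpha and a beta chain that span the cell membrane and bind this sheet. The alpha 6 beta 4 integrin binds a laminin that contains alpha 3 and beta 3 chains and, through plectin and dystonin, ties keratin filaments to the matrix in a hemidesmosome. The beta 1 integrins bind laminin and collagen and link to actin, and alpha v beta 6 binds the latent form of TGF-beta and releases its activity.

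After cells with under 1000 detected genes or 50000 counts were left out, 53 naive and 80 inflamed cells of batch 2 and 59 naive and 76 inflamed cells of batch 3 remained. Their counts were summed into 4 sums of 50105953 to 79225330 counts. Median depth was 840863 to 1001872 counts per cell, and median detected genes were 3432 in naive batch 3 against 4109 to 4739 in the other groups. Reads of all 10 basal markers were present in every sum. Krt15 and Krt17 had a read in 100% of cells, while Itgb4 and Col17a1 had one in 62.7% and 69.5% of naive batch 3 cells. In both batches 5 of the 10 were higher and 2 lower in inflamed cells, against 30.9% and 28.3% of all genes tested. The other 3 had opposite signs. Some luminal and fibroblast markers had reads in as many cells, so a read alone does not mark a cell as basal. Of 10 leukocyte markers 8 were listed at 0 in every kept cell, Ptprc (CD45) among them. The sources used here do not say whether any rows were emptied before deposit, so a gene at 0 in every cell is a listed value and does not show that its RNA was missing. The exceptions were Cd3g and Cd14, the latter at 22.3 and 0.379 CPM (naive) against 133.4 and 156.9 CPM (inflamed). The 8 endothelial markers summed to at most 2.24 CPM. Of 10 fibroblast markers Lum, Pdgfrb, Thy1 and Dpt were listed at 0 too, while Dcn had a read in 100% of cells of each group. All 10 mitotic markers were at least 2-fold higher in inflamed cells in both batches, with summed levels of 47.9 to 76.3 CPM in naive and 339.8 to 358.4 CPM in inflamed sums. All 14 luminal markers had reads, with summed levels of 1704 CPM (naive) and 2703 CPM (inflamed) in batch 2 and 2303 CPM (naive) and 2287 CPM (inflamed) in batch 3, so higher in inflamed cells in batch 2 alone. In both batches 4 of the 14 were higher and 6 lower, and 1 was at least 2-fold higher and 6 at least 2-fold lower, with median log2 fold changes of -0.89 and -0.45. Krt18 had a read in 98.3% to 100% of the cells of a group, and Krt19 was at 30.3 and 100.9 CPM (naive) against 584.4 and 619.2 CPM (inflamed). Hoxb13 was at 119.7 and 108.6 against 29.4 and 13 CPM, and Defb50 at 397.8 and 185.7 against 77.6 and 56.3 CPM. Myh11, Des and Actg2 of the 7 smooth muscle markers were listed at 0. What part the luminal markers or Cd14 have in the results was not tested. CPM is counts per 1000000 of the sum's TMM-corrected size, and where a pair of values is given, batch 2 stands before batch 3.

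The 31 genes took 0.629% and 0.572% of the counts of the naive sums and 0.905% and 0.826% of those of the inflamed sums of batches 2 and 3. The 6 listed integrin subunits outside the hemidesmosome summed to 1516 and 2068 CPM (naive) against 4375 and 3573 CPM (inflamed). Itgb6 alone was at 520.1 and 936.4 against 2528 and 2146 CPM. All 6 were higher in inflamed cells in both batches, against 30.9% of all genes tested. Itgb6, Itga3 and Itga2 were more than 2-fold higher in each. Of the hemidesmosome integrin, Itga6 was higher in both batches and Itgb4 had opposite signs. For the other 3 (Itgb1, Itgav and Itgb5) the batch 3 differences were small, and without cells with reads of other cell types their batch 3 log2 fold changes were -0.26, -0.30 and -0.56. Here and below, that setting left out cells with reads of at least 3 fibroblast, smooth muscle, endothelial or leukocyte markers. Dcn, a fibroblast marker, had a read in every cell, so the cells kept still held some such reads. The setting does not show that the cells left out were of another type. The collagen IV chains did not follow: 0 of 4 chains were higher in both batches and 3 had opposite signs. Lamb1, a laminin beta chain, was the only gene of the 31 at least 2-fold lower in both batches.

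Of the 31, 29 had enough reads to be tested, and 15 were higher and 5 lower in inflamed cells in both batches, while 9 had opposite signs. Among all 14713 genes tested, the shares higher and lower in both batches were 30.9% and 28.3%. A difference of at least 2-fold upward in both batches was found for 5 of the 29 (Itgb6, Itga3, Itga2, Tnc and Nid1), against 14.6% of all genes, and at least 2-fold lower was 1, against 10.6%. The 5 of 29 are therefore close to the background share. Genes of few cells make up much of that background. Among the 26 members with a read in at least 20% of kept cells, 14 were higher and 4 lower in both batches, against 31.8% and 30.7% of the 6981 such genes. In that set 4 were at least 2-fold higher and 1 at least 2-fold lower, against 8.92% and 6.9%. The median log2 fold change of the 29 was 0.41 in batch 2 and 0.06 in batch 3, beside 0.05 and 0.06 over all genes.

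No member passed after adjustment. edgeR's quasi-likelihood test, with batch in the model and 2 sums per condition, called 0% of the 14713 genes, and the lowest adjusted p was 0.568. At an unadjusted p under 0.05 it gave 6 members higher (Col17a1, Itgb6, Tnc, Itga3, Itga2 and Nid1) and 0 lower, against 5.04% of all genes higher and 3.23% lower. DESeq2, run as an alternative, called 4 members higher (Itgb6, Tnc, Itga2 and Nid1) and 0 lower, against 6.3% and 3.63% of all genes. The labels name no animals, so these p-values rest on the spread between 2 batches alone, and that spread may be technical.

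**Figure D1:**
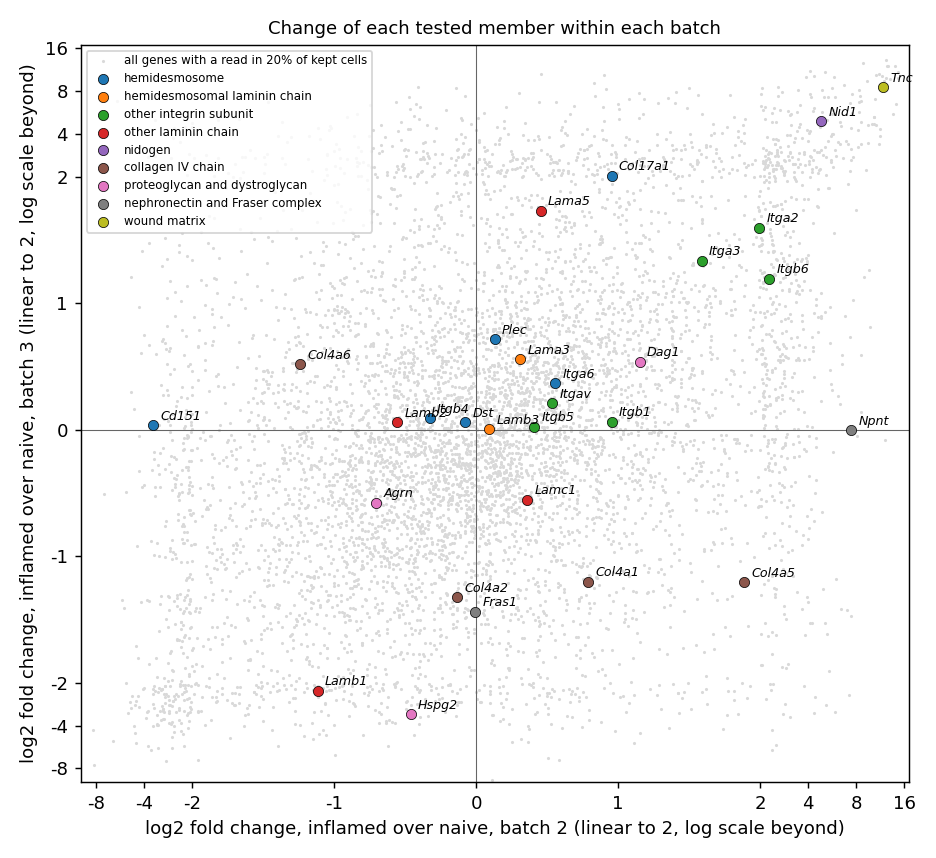
Log2 fold change (inflamed over naive) of the 29 tested members in batch 2 (x axis) and batch 3 (y axis), coloured by role, over grey points for all genes with a read in at least 20% of kept cells. Axes are linear up to 2 and logarithmic beyond. Itgb6, Itga3 and Itga2 lie in the upper right, Lamb1 in the lower left, and the collagen IV chains Col4a1 and Col4a5 at the lower right, with opposite signs.

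Both chains of the alpha v beta 6 integrin were higher in the inflamed sums, the beta chain by far more than the alpha chain, whose direction depended on the cells included. Itgb6 (chr2:60598292-60722643, GRCm38, minus strand), the beta chain that pairs only with alpha v, measured 520.1 and 936.4 CPM in naive batches 2 and 3 and 2528 and 2146 CPM in inflamed batches 2 and 3. Both inflamed sums were above both naive sums, by 4.86-fold in batch 2 and 2.29-fold in batch 3 (log2 fold change 1.74 ± 0.39 as SE over n = 2 sums per condition, edgeR adjusted p = 0.568). The unadjusted p of Itgb6 was 0.0131. Each SE given with ± was derived from edgeR's test, as the size of the log2 fold change divided by the square root of F. It draws on dispersion shared across genes and is not the spread of the gene's own 2 batch values.

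The gap was wider in the typical cell than in the sums. The median naive cell held 19.1 CPM of Itgb6 in batch 2 and 10.3 CPM in batch 3, and the median inflamed cell 1687 and 1432 CPM. In the naive sums 50% of the Itgb6 reads came from 3 cells in each batch, whereas it took 14 and 11 inflamed cells to reach 50%. The shares of cells at 100 CPM or more, a level chosen after the data were seen, were 30.2% (exact 95% interval 18.3 to 44.3%) and 33.9% (22.1 to 47.4%) of naive cells. They were 78.8% (68.2 to 87.1%) and 76.3% (65.2 to 85.3%) of inflamed cells. These Clopper-Pearson intervals cover counting of cells only. Nearly every cell had at least 1 Itgb6 read, 94.9% to 100% over the 4 groups, so naive cells differed in amount rather than in detection. Without the cells that had reads of at least 5 mitotic markers, the Itgb6 log2 fold change was 2.36 in batch 2 and 1.23 in batch 3, against 2.28 and 1.20 with all cells.

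Itgav, the alpha v chain shared by beta 5 and beta 6, was at 504.5 and 483.1 CPM (naive) against 731.3 and 558.7 CPM (inflamed). The inflamed sums were 1.45-fold and 1.16-fold higher within batches 2 and 3, and they lay above both naive sums. With each gene's own top cell taken out of each sum, the Itgav log2 fold changes were 0.77 and -0.02. Wherever it is used here, that setting covered all genes and derived the sizes of the sums anew. Its values therefore do not isolate the part of 1 cell. The top Itgav cell held 14.6% of naive and 7.77% of inflamed batch 3 reads. The median batch 3 cell stood at 216.4 CPM (naive) against 352.9 CPM (inflamed). Without cells with reads of other cell types Itgav was lower in inflamed cells in both batches, at -0.13 and -0.30. Itgb5, the beta 5 chain that binds vitronectin, was at 36.3 and 71.2 CPM in naive cells and at 48.1 and 72.5 CPM in inflamed cells. Its sums split by batch and not by condition, and 64.5% of its naive batch 3 reads came from 1 cell.

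The beta 1 chain and its alpha 2 and alpha 3 partners were also higher in inflamed cells. Itga3 (chr11:95044474-95076801, minus strand), which pairs with beta 1 to bind laminin, was at 77.1 and 79.4 CPM (naive) against 231.8 and 200.7 CPM (inflamed). The groups did not overlap, with folds of 3.01 and 2.53 (log2 fold change 1.46 ± 0.37 as SE over n = 2 sums per condition, edgeR adjusted p = 0.568). In naive cells 1 cell gave 39.2% of the Itga3 reads of batch 2 and 56.1% of those of batch 3. Itga2 (chr13:114833081-114932100, minus strand), the alpha chain of a collagen receptor, was at 50.7 and 38.1 CPM in naive cells and at 201.9 and 115.5 CPM in inflamed cells. Both inflamed sums exceeded both naive sums, by 3.98-fold and 3.03-fold (log2 fold change 1.80 ± 0.44 as SE over n = 2 sums per condition, edgeR adjusted p = 0.568). A read of Itga2 was found in 39.6% and 40.7% of naive against 85% and 69.7% of inflamed cells of batches 2 and 3. With at least 5 reads required, the shares were 18.9% and 16.9% against 57.5% and 43.4%.

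Itgb1, the common beta 1 chain, was at 326.9 and 459.5 CPM (naive) against 633.3 and 479.9 CPM (inflamed). The inflamed sum was 1.94-fold higher in batch 2 and only 1.04-fold in batch 3. With each gene's top cell taken out and sizes derived anew, the batch 3 log2 fold change was -0.11. The top Itgb1 cell held 17.2% of naive and 7.26% of inflamed batch 3 reads. The median cell stood at 145.3 and 59.3 CPM (naive) against 410.3 and 220.8 CPM (inflamed). When cells with reads of at least 3 fibroblast, smooth muscle, endothelial or leukocyte markers were left out, 19, 45, 51 and 43 cells of the 4 groups remained. The log2 fold changes were then 0.80 and 0.74 for Itga3, 0.97 and 1.51 for Itga2, and 2.18 and 1.04 for Itgb6. Itga3 was thus under 2-fold in both batches and Itga2 in batch 2, while Itgb6 was not.

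**Figure D2:**
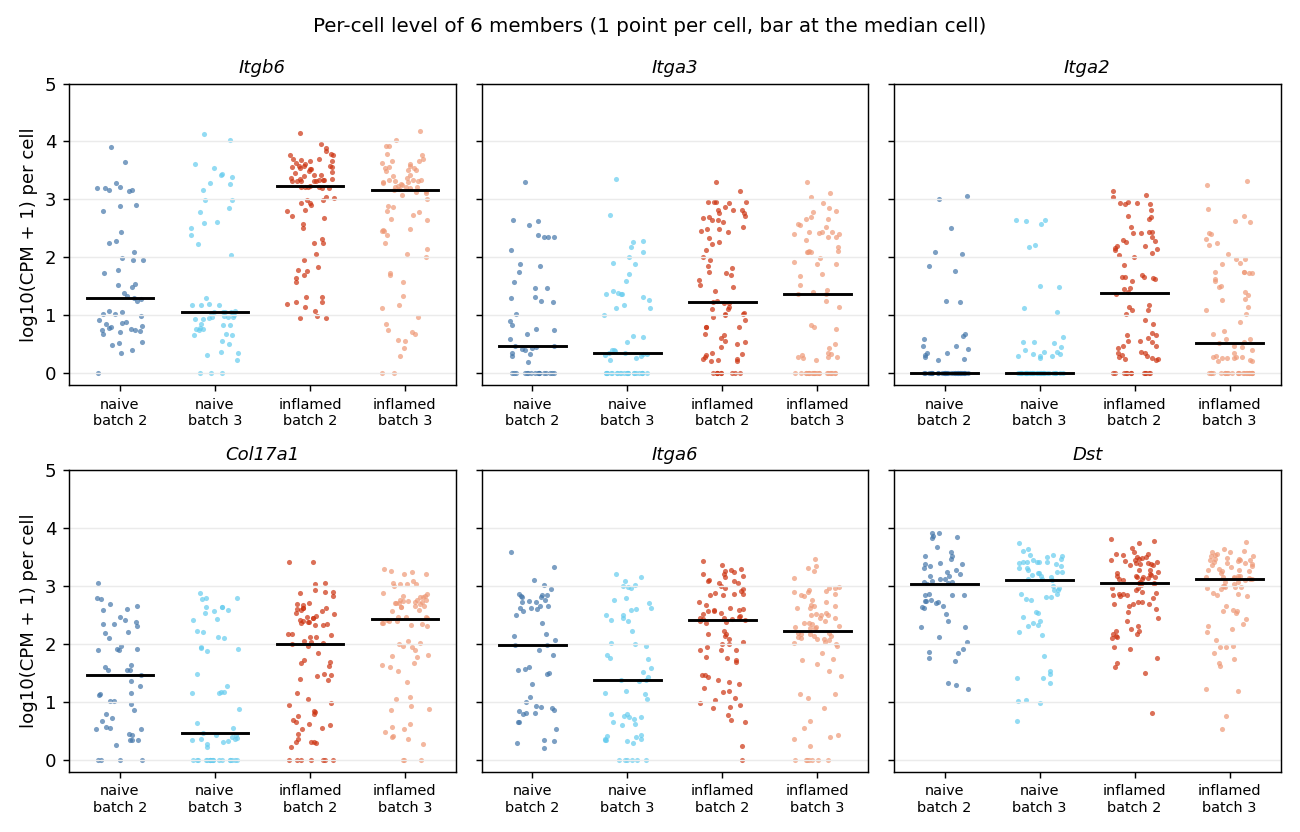
Level of 6 members in each kept cell, as log10(CPM + 1) on the y axis, by condition and batch, with 1 point per cell and a bar at the median cell. For Itgb6 the naive medians of 19.1 and 10.3 CPM lie far below the inflamed medians of 1687 and 1432 CPM, while Dst lies at like levels in all 4 groups.

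The stretches directly upstream of Itgb6, Itga3 and Itga2 are shown because these 3 integrin genes were at least 2-fold higher in inflamed cells in both batches. RefSeq promoter windows (GRCm38.p6) were matched by symbol for 24 of the 31 members, without Plec, Lama3, Itgb4, Itga6, Nid2, Lamc1 and Fras1. The stretches run 5' to 3' on the gene's strand, all on the minus strand, and end before the start of the gene in both RefSeq and GENCODE. They are chr2:60722644-60722853, chr11:95076802-95076964 and chr13:114932101-114932350, and capitals mark the GC box GGGCGG.
Itgb6: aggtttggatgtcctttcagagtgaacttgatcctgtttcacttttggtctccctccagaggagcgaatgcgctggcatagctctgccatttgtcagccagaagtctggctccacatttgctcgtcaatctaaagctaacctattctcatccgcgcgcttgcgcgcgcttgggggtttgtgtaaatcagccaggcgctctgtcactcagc
Itga3: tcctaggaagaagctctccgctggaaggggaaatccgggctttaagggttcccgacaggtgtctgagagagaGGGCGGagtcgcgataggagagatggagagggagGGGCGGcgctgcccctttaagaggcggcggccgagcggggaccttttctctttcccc
Itga2: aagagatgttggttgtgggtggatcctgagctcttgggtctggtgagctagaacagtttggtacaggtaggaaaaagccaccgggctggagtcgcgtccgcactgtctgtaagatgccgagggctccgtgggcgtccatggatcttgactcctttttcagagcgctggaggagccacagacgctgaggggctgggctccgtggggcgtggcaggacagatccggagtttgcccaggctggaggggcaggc
In the 250 bases before each RefSeq start, on both strands, 4 motifs were searched: the AP-1 site TGANTCA, the STAT site TTCNNNGAA, the GC box GGGCGG and the TEAD site CATTCC. Itga3 held 3 GC boxes, of which the stretch above shows 2, and neither Itgb6 nor Itga2 held any of the 4 motifs. No matches overlapped each other in these 3 windows. Among 27025 promoters, 6.85% held the AP-1 site, 7.14% the STAT site, 32.96% the GC box and 12.6% the TEAD site. Of the 24 members 0, 1, 16 and 3 held them. A match is only a run of letters, and a missing match says nothing of the factor.

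Of the 6 hemidesmosome genes 3 (Col17a1, Itga6 and Plec) were higher in both batches, against 30.9% of all genes tested. The other 3 (Itgb4, Dst and Cd151) had opposite signs. Col17a1 (chr19:47646344-47692094), the transmembrane collagen XVII of the plaque, was at 121.5 and 111.9 CPM in naive cells and at 235.4 and 461.2 CPM in inflamed cells. Both inflamed sums were above both naive sums, by 1.94-fold and 4.12-fold (log2 fold change 1.498 ± 0.44 as SE over n = 2 sums per condition, edgeR adjusted p = 0.568). Its median cell stood at 28 and 1.87 CPM (naive) against 99.1 and 268.04 CPM (inflamed), so most naive cells of batch 3 held very few reads.

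Itga6, whose product was stained for the sort, was at 362.5 and 283.9 CPM (naive) against 532.7 and 366.4 CPM (inflamed). The inflamed sums were above the naive sums by 1.47-fold and 1.29-fold. In batch 3 the log2 fold change was 0.37, and 0.075 with each gene's top cell taken out and sizes derived anew. The top Itga6 cell held 12.9% of naive and 10% of inflamed batch 3 reads. Itgb4, its partner chain, was at 114.7 and 80.7 CPM in naive cells and at 91.3 and 86 CPM in inflamed cells. The Itgb4 ranges overlapped and the sign differed between batches. Those signs depended on the setting. Without cells with reads of other cell types the Itgb4 log2 fold changes were 0.046 and 0.046. With each gene's top cell taken out they were -0.59 and -0.11.

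Dst, which encodes dystonin, a linker of keratin to the plaque, was the steadiest of the 31 at 1677 and 1541 CPM (naive) against 1587 and 1608 CPM (inflamed). Dst had a read in 100% of kept cells of every group. In the main setting the inflamed sum was 1.06-fold lower in batch 2 and 1.04-fold higher in batch 3. Plec, the plectin gene, was at 867.97 and 802.3 CPM in naive cells and at 949.5 and 1320.1 CPM in inflamed cells. Both inflamed sums of Plec were above the naive sums, by 1.09-fold and 1.65-fold, and without cells with reads of other cell types the log2 fold changes were -0.014 and 0.94. Cd151, a tetraspanin that binds alpha 3 and alpha 6 integrins, was at 63.3 and 60.1 CPM (naive) against 5.44 and 61.6 CPM (inflamed). It stood apart in a single group: inflamed batch 2 was 11.6-fold below its naive sum, whereas the batch 3 sums were 1.03-fold apart. No inflamed batch 2 cell of 80 reached 100 CPM of Cd151, against 17%, 6.78% and 13.2% in naive batch 2, naive batch 3 and inflamed batch 3.

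Lama3 and Lamb3 encode chains of the laminin that is the main ligand of the hemidesmosome integrin. Lama3, its alpha chain, was at 224.8 and 213.7 CPM in naive cells and at 278.6 and 314.5 CPM in inflamed cells. The inflamed sums were modestly higher, by 1.24-fold and 1.47-fold, and did not overlap the naive sums. Without the cells with reads of other cell types the batch 3 value turned to a log2 fold change of -0.47. Lamb3, its beta chain, was at 98.6 and 109.6 CPM (naive) against 105.2 and 110.03 CPM (inflamed). The 4 Lamb3 sums overlapped, its batch 3 log2 fold change turned from 0.0062 to -0.01 under RLE scaling, and 1 cell held 68.5% of the reads of naive batch 3. With each gene's top cell taken out of each sum, the batch 3 value of Lamb3 was 1.04. Without cells with reads of other cell types its values were -0.54 and 1.98.

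The other laminin chains differed among themselves. Lamb1 (chr12:31265234-31329644), the beta chain of the widespread laminins, was at 40.6 and 68.5 CPM in naive cells and at 18.7 and 14.1 CPM in inflamed cells. Both inflamed sums were below both naive sums, by 2.17-fold and 4.84-fold (log2 fold change -1.70 ± 0.81 as SE over n = 2 sums per condition, edgeR adjusted p = 0.645). A read of Lamb1 was found in 34% and 49.2% of naive and 25% and 18.4% of inflamed cells, and 1 cell held 50% of the reads of inflamed batch 2. The batch 2 difference was under 2-fold without mitotic cells (log2 fold change -0.70) and with each cell weighted equally (-0.44). Lama5, the alpha 5 chain of mature epithelial basement membranes, was at 137.7 and 38.7 CPM (naive) against 188.7 and 128.7 CPM (inflamed). Its inflamed sums were 1.37-fold and 3.33-fold higher within the batches, but the ranges overlapped, because naive batch 2 exceeded inflamed batch 3.

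Lamc1, the gamma chain of most laminins, was at 84.8 and 138.9 CPM in naive cells and at 108.7 and 94.7 CPM in inflamed cells. It overlapped between the conditions and had opposite signs in the batches. Lamb2, a beta chain found in few cells here, was at 9.82 and 6.97 CPM (naive) against 6.67 and 7.27 CPM (inflamed). It too had opposite signs, and at least 5 reads were found in only 3.39% to 15.1% of the cells of a group. Nidogens join laminin to collagen IV. Nid1 was at 0.159 and 1.07 CPM in naive cells and at 5.29 and 33.1 CPM in inflamed cells, 33.2-fold and 30.8-fold higher in inflamed cells. These Nid1 reads came from few cells: 1 cell held 80.4% to 100% of the reads of each sum. Without the cells with reads of other cell types the batch 2 log2 fold change of Nid1 was -0.32, so its direction there turned. Nid2 was listed at 0 reads in all 4 sums, which allows up to 3 reads in each if its row was counted.

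Collagen IV chains assemble in threes into the network of the basement membrane. Col4a1 was at 87 and 185.5 CPM (naive) against 149.95 and 80.6 CPM (inflamed), and Col4a2, its partner in the commonest trimer, was at 72.4 and 52.2 CPM in naive cells and at 66 and 20.9 CPM in inflamed cells. Both were lower in inflamed cells of batch 3, by 2.3-fold and 2.5-fold, whereas in batch 2 Col4a1 was 1.72-fold higher and Col4a2 1.1-fold lower. Their ranges overlapped, and the batch 2 log2 fold change of Col4a2 turned from -0.13 to 0.77 without cells with reads of other cell types. The 2 genes lie head to head on chromosome 8, with starts 21 bases apart on opposite strands.

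Col4a5 was at 9.32 and 25.1 CPM (naive) against 34.6 and 10.9 CPM (inflamed), and Col4a6, its neighbour on the X chromosome, was at 65.5 and 22.3 CPM in naive cells and at 27.7 and 32 CPM in inflamed cells. The batches had opposite signs for both, and those of Col4a5 and Col4a6 were the reverse of each other. In the 4 groups Col4a5 had a read in 21.1% to 40.7% of cells and Col4a6 in 30.5% to 49.1%.

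Agrn and Hspg2, which encode heparan sulfate proteoglycans of the basement membrane, were lower in the inflamed sum of each batch. Agrn, the agrin gene, was at 216.7 and 149.8 CPM (naive) against 133.1 and 100.6 CPM (inflamed). Inflamed sums were 1.63-fold and 1.49-fold lower (log2 fold change -0.64 ± 0.36 as SE over n = 2 sums per condition, edgeR adjusted p = 0.701), and both lay below both naive sums. The median Agrn cell was lower in inflamed batch 2, at 92 CPM (naive) against 31.8 CPM (inflamed). In batch 3 it was higher, at 15.7 against 33.2 CPM. With each cell weighted equally the log2 fold changes of Agrn were -0.79 and -0.12. Hspg2, the perlecan gene, was at 7.43 and 27.7 CPM in naive cells and at 5.38 and 2.76 CPM in inflamed cells. Both inflamed sums of Hspg2 were the lower ones, but its batch 2 log2 fold change turned from -0.46 to 0.99 without cells with reads of other cell types, and 1 cell held 49.8% of the naive batch 3 reads. Dag1, the dystroglycan gene whose product binds agrin, perlecan and laminin, was at 25.8 and 32.2 CPM (naive) against 57.3 and 46.8 CPM (inflamed). Dag1 went the other way, with inflamed sums 2.22-fold and 1.45-fold higher and no overlap.

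Tnc encodes tenascin-C, a matrix protein of wounds that some integrins bind. Its reads numbered 0 and 4 in the naive sums of batches 2 and 3 and 8691 and 3339 in the inflamed sums, or 110.2 and 43.9 CPM in the latter. Against a floor of 3 counts in the naive sum, inflamed batch 2 was at least 2074-fold higher. That floor covers counting of reads in these cells only. Reads were clumped by cell, so the figure is not a lower bound for naive cells in general. A read of Tnc was present in 0 of 53 and 5.08% of naive cells against 48.8% and 28.9% of inflamed cells. A 0 of 53 allows a share of up to 5.66% at a floor of 3 counts, and its exact 95% interval ends at 6.72%. Most of those cells held few reads: 12.5% and 15.8% had at least 5, and 1 cell held 53.3% and 32.2% of the inflamed reads.

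The nephronectin and Fraser complex genes were near the limit of detection. Npnt, an alpha 8 beta 1 ligand, had 1, 243, 661 and 389 reads in naive batches 2 and 3 and inflamed batches 2 and 3. In 3 of these sums 1 cell held at least 85.9% of the Npnt reads, and in inflamed batch 2 it held 70.8%. Fras1 was at 2.91 and 12.9 CPM in naive cells and at 2.89 and 4.75 CPM in inflamed cells, with a read in 5% to 20.8% of the cells of a group. Frem2 had 0, 0, 1165 and 1 reads and was not tested, since 1 cell held 99.9% of the 1165.

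Between genes, levels were compared per kilobase of exon. Itgb6 held the highest level of the 31 in both inflamed sums, at 355.6 and 301.7 CPM per kilobase, and Itgb1 came next with 155.2 and 117.6. In naive cells Itgb1 (80.1 and 112.6) and Itgb6 (73.1 and 131.7) were near each other and changed order between the batches. Plec, Itgav, Dst and Itga6 followed in naive cells at 31.5 to 47.9 CPM per kilobase. The gap between Itga6 and Itgb4 was clear in every sum: Itga6 held 31.5 to 59 and Itgb4 11.5 to 16.3 CPM per kilobase. Lama3 at 19.9 to 29.3 and Lamb3 at 14.9 to 16.6 CPM per kilobase were closer to each other. Lamb1, Lamb2, Hspg2, Nid1, Fras1, Npnt and Frem2 all stayed under 10 CPM per kilobase.

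**Figure D3:**
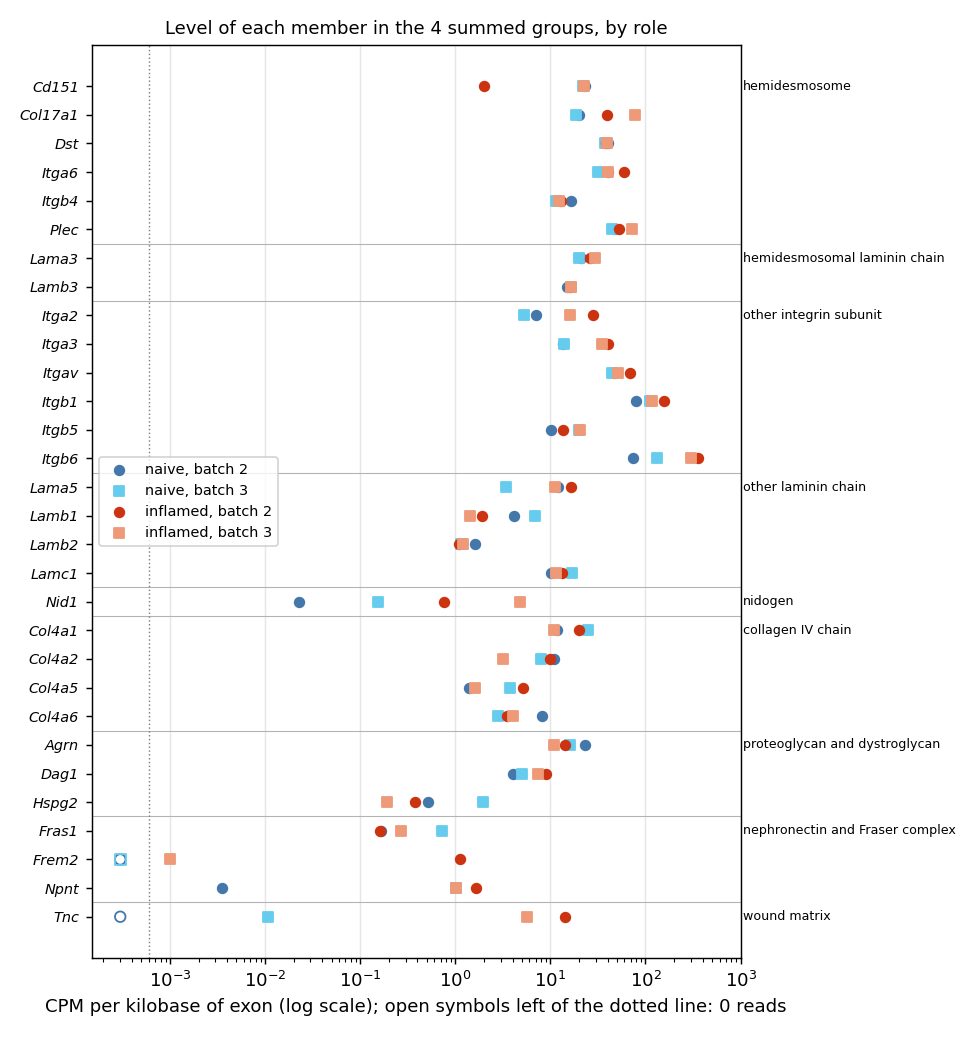
Level of 30 members (without Nid2, which had 0 reads) in the 4 sums, as CPM per kilobase of exon on a logarithmic x axis, grouped by role, with naive sums in blue and inflamed sums in red. Open symbols left of the dotted line stand for 0 reads. Itgb6 and Itgb1 hold the highest levels, and Frem2 and Tnc are at 0 in naive batch 2.

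At a level of 100 CPM, chosen after the data were seen, few members differed by a wide gap in both batches. The share of cells at 100 CPM or more was higher by at least 20 percentage points in both batches for 2 of the 29 tested members, Itgb6 and Itgb1, against 1.49% of all genes tested. It was lower by that much for 0, against 0.333%. These counts depend on the level and the gap. Tnc and Nid1 could not pass, since at most 7.89% of the cells of a group reached 100 CPM. Itga2 rose by 26.8 points in batch 2 and 5.62 in batch 3. Of the 14713 genes behind the shares, 6981 had a read in at least 20% of kept cells, and no share was taken for those alone. For Itgb1 the shares were 50.9% and 40.7% of naive and 80% and 63.2% of inflamed cells. Col17a1 went from 30.2% and 27.1% to 50% and 64.5%, and Itga3 from 17% and 11.9% to 36.2% and 36.8%, each just short of 20 points in batch 2. Itga6 was at 49.1% and 35.6% of naive and 63.8% and 67.1% of inflamed cells. Agrn differed between the batches, at 49.1% of naive and 27.5% of inflamed cells in batch 2 and 25.4% and 32.9% in batch 3. Low counts were spread unevenly over the groups. Col4a2 had a read in 94.3% of naive batch 2 cells but at least 5 reads in 50.9%, against 39% and 25.4% in naive batch 3. The number of members with a read had a median of 19 and 15 per naive cell and 19 and 17 per inflamed cell of batches 2 and 3.

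**Figure D4:**
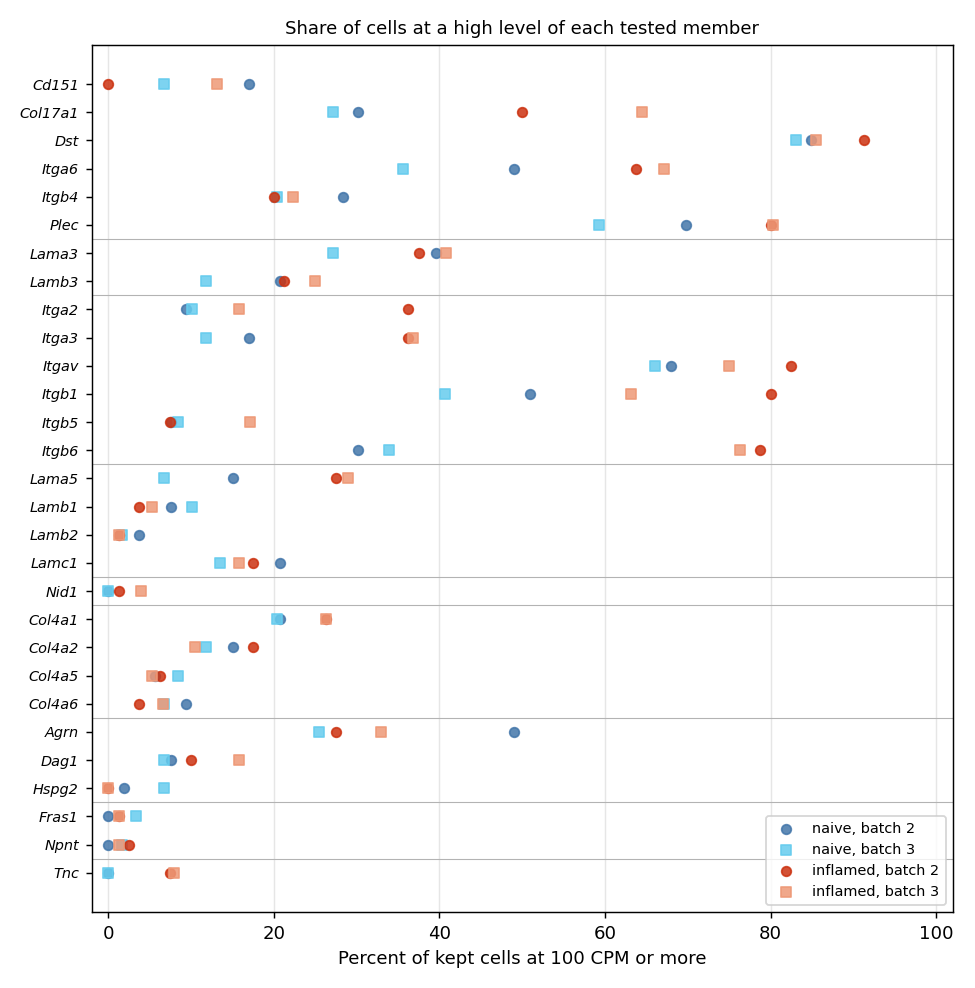
Percent of kept cells at 100 CPM or more of each of the 29 tested members (x axis), by condition and batch, in the order of the roles. The inflamed points of Itgb6 (78.8% and 76.3%) lie far to the right of its naive points, whereas the 4 points of Dst lie close together.

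Within a group, binding partners varied together only weakly from cell to cell. Over the 53, 59, 80 and 76 cells, Spearman's rho of Itgav with Itgb6 was 0.303, 0.0352, 0.285 and 0.181 in naive batches 2 and 3 and inflamed batches 2 and 3. Itga6 with Itgb4 gave -0.227, 0.286, 0.0619 and 0.206. Lama3 with Lamb3 gave 0.179, 0.39, 0.317 and 0.126, and Col4a1 with Col4a2 gave 0.175, 0.364, 0.287 and 0.304. Cells of a group share a batch and differ in depth, and counts are sparse, so these values are a description.

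Among other genes of the same pathways, further basement membrane genes went both ways. Of 16 such genes 10 were tested. In both batches 4 were higher and 6 lower, against 30.9% and 28.3% of all genes tested. At least 2-fold higher were 2 and at least 2-fold lower 4, against 14.6% and 10.6%. At an unadjusted p under 0.05 edgeR gave 3 lower and 0 higher, against 3.23% and 5.04% of all genes, and after adjustment 0. Their medians were -0.64 and -0.50 in batches 2 and 3, beside 0.05 and 0.06 over all genes. Col4a3, an alpha 3 chain of collagen IV, was at 150.1 and 571.3 CPM (naive) against 22.5 and 38 CPM (inflamed). Col4a4, its neighbour and partner, was at 114.8 and 57.9 against 14.6 and 13.4 CPM. Sparc, a collagen-binding glycoprotein, was at 591.2 and 790.5 against 77.9 and 149.4 CPM. For these 3 genes both inflamed sums lay below both naive sums. A read of Col4a3 was found in 77.4% and 79.7% of naive against 17.5% and 13.2% of inflamed cells. Ntn4, a netrin, was higher at 1.12 and 1.54 against 15.1 and 4.75 CPM.

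Of 17 further integrin subunits only 5 had enough reads to be tested, and 4 were listed at 0 reads. Of the 5, 4 were higher in both batches (Itga1, Itga5, Itga8 and Itga9) and 1 lower (Itgb8), and Itga8 and Itga9 were at least 2-fold higher. Over all genes tested 30.9% were higher and 28.3% lower in both batches, and 14.6% were at least 2-fold higher. The median log2 fold changes were 0.85 and 2.97. No level of Itga1, Itga5, Itga8 or Itga9 exceeded 12.8 CPM, and a read was found in 1.87% to 20.1% of kept cells. Itgb8, another beta chain that binds latent TGF-beta with alpha v, was at 207.5 and 105.4 CPM (naive) against 21.8 and 82.5 CPM (inflamed), the opposite order to Itgb6. It was named after its values were seen. Of 18 adhesion adaptors all were tested, and 7 were higher and 5 lower in both batches, against 30.9% and 28.3% of all genes. At least 2-fold higher were 2 and at least 2-fold lower 2, against 14.6% and 10.6%, so these counts were near the background shares. The higher were Actn1, an actin crosslinker (133.5 and 162.02 against 332.4 and 356.4 CPM), and Ilk, a pseudokinase at beta 1 tails (3.88 and 3.26 against 14.6 and 7.86 CPM). The lower were Tln2, a talin (42.2 and 31.3 against 1.43 and 3.89 CPM), and Tns3, a tensin (124.7 and 79.8 against 17.8 and 32 CPM). Of the other 5 hemidesmosome and anchoring genes reported here, Krt5 and Erbin were lower in both batches, neither by 2-fold in both, and Col7a1, Krt14 and Cd9 had opposite signs. Krt5, a basal keratin, was at 338.9 and 198.6 CPM (naive) against 139.3 and 169.9 CPM (inflamed).

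Reads carry no strand, so part of a member's reads may belong to a gene that overlaps it. The largest shares of exon bases covered by another gene were 8.45% for Nid2, which had no reads, 7.66% for Itgb4 (with B230344G16Rik), 7.04% for Cd151 (with Gm10575) and 5.9% for Itgav (with Gm13684). Of the 3 integrins at least 2-fold higher, Itgb6, Itga3 and Itga2, none overlapped the exons of another annotated gene.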

How the data were processed

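The authors deposited unnormalized read counts, with genes in rows and cells in columns and a table for each batch, per the file headers and labels. SMARTer cDNA from a Fluidigm C1 instrument was made into Nextera libraries and read single-end, per the labels' protocols. There are no molecular identifiers, so intervals and floors cover counting error only. TopHat2, HTSeq, R 3.4.1, Seurat 1.4 and GRCm38.p6 are named, per the submitters' processing notes. The sources used here do not say how reads with several positions were counted.

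Of 282 cells 268 passed the filter (1000 detected genes and 50000 counts), no cell had counts identical to another's, and no doublet caller was run. Cells are not replicates and no animals are labelled, so counts were summed per condition and batch. The 4 sums were fitted with edgeR 4.0.16 in R 4.3.3 (TMM, filterByExpr, quasi-likelihood F test, batch and condition in the model, 1 residual degree of freedom, Benjamini-Hochberg threshold 0.05 over 14713 genes), and with DESeq2 1.42.0 as an alternative. The code was tested on simulated data. Within-batch fold changes of single sums have no test. They are ratios of CPM, or log2 CPM differences with a prior count of 2. The batch, named in the labels, pairs the sums. Their batch deviations had a correlation of -0.0089 over 14713 genes. Coordinates and exon lengths are from GENCODE release M21.

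Members and lists were chosen with earlier results of these data known. All members are named. Of the other hemidesmosome and anchoring genes 1 is not reported here. Of other lists, genes are named that were at least 2-fold different in 1 direction in both batches and found in 20% of the cells of 1 group, at most 6 per list. Alternatives covered cell and gene filters, scaling, DESeq2, the batch term, each sum left out and cell weighting. They also left out each gene's top cell, mitotic cells, or cells with other cell type markers. The share of cells at 100 CPM was chosen after the data were seen.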

Additional observations from a re-analysis of the deposited data

How the results depend on the processing

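The count of called genes was 0 under edgeR in the main setting and in every alternative run with edgeR, with a lowest adjusted p of 0.0887 when only genes found in 20% of cells were tested. DESeq2 called 1461 genes (927 higher and 534 lower) where edgeR called 0, with the same model, and the cause was not tested. With the batch block taken out of the model, which unpairs the sums, 0 genes were called and the lowest adjusted p was 0.297. Leaving out each sum in turn gave 0 to 0 called genes. These fits have no batch term and assume that the lone sum varies like the other groups.

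The count of members at least 2-fold lower in both batches was 1 in the main setting. It was 2 without each gene's top cell, and 2 without cells with reads of other cell types. It was 0 without mitotic cells and with each cell weighted equally. The median log2 fold change was 0.77 in batch 2 without cells with reads of other cell types. It was 0.46 in batch 3 without each gene's top cell. Counts of members higher in both batches ranged from 10 to 17, lower from 4 to 7, and at least 2-fold higher from 4 to 7. Of 298 fold changes of the 20 members with 1 direction, 288 kept direction and side of the threshold, 4 were called by DESeq2 and 6 turned. Leaving out each sum in turn, the log2 fold change of Lamb3 ranged from -0.024 (without the naive batch 2 sum) to 0.17, that of Itgb5 from -0.24 (without the naive batch 2 sum; -0.14 without the inflamed batch 3 sum) to 0.78, that of Col4a2 from -1.56 to 0.11 (without the inflamed batch 3 sum) and that of Fras1 from -1.76 to 0.44 (without the naive batch 3 sum), and Itgav turned to -0.22 without cells with reads of other cell types. The cause was not tested. For Nid1, Npnt, Fras1, Frem2 and Tnc a few cells hold most reads, which limits what their sums can show.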

Other observations

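Matrix proteases stood higher in inflamed cells in part. Of 20 proteases and inhibitors 15 were tested, 6 were higher and 2 lower in both batches, and 5 were at least 2-fold higher, and none lower. Mmp7, matrilysin, had 0 and 18 reads in the naive sums against 57639 and 57825 in the inflamed sums of batches 2 and 3, and a read in 98.8% and 92.1% of inflamed cells. Plaur, the urokinase receptor, was at 214.9 and 374.4 CPM (naive) against 2018 and 1116 CPM (inflamed). Adam10, a shedding protease, was at 126.4 and 275.4 against 664.7 and 729.8 CPM. Timp1 and Plau, an inhibitor of metalloproteases and the urokinase gene, completed the 5, at 0.106 and 4.15 against 27.5 and 28 CPM and at 13.8 and 0.569 against 30.7 and 133.3 CPM. None passed edgeR's adjusted threshold, and DESeq2 called 5. Over all genes tested 14.6% were at least 2-fold higher and 10.6% at least 2-fold lower in both batches, and DESeq2 called 6.3% higher.

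Ligands of alpha v integrins and latent TGF-beta genes split. Of 10 genes 8 were tested, 4 were higher and 3 lower in both batches, and 2 were at least 2-fold lower. Those were Ccn1, a matricellular ligand, at 3739 and 4428 CPM (naive) against 1556 and 1556 CPM (inflamed), and Tgfb3, at 2.78 and 2.72 against 0.0381 and 0.0263 CPM. Thbs1, another ligand and named after its values were seen, was at 1681 and 1789 against 3278 and 2752 CPM. Of 10 dystroglycan partners 9 were tested, 4 were higher and 3 lower in both batches, and 3 were at least 2-fold higher and 2 lower. Over all genes tested the shares higher and lower in both batches were 30.9% and 28.3%, and the 2-fold shares were 14.6% and 10.6%. DESeq2 called 3 of the partners higher and 0 lower, against 6.3% and 3.63% of all genes, and edgeR called 0 after adjustment. The 2 lower were Dmd (17.1 and 11.8 against 3.88 and 3.41 CPM) and Pomgnt1 (29.3 and 191.7 against 13.5 and 41.8 CPM).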
